A study of Mus musculus with 16 samples.

Results

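The genes described here are 10 genes that astrocytes use to clear and supply what neurons release and need. They are Slc1a2 and Slc1a3 (glutamate transporters), Glul (glutamine synthetase), Aldoc (the brain aldolase), Atp1b2 (a sodium pump subunit), Gja1 and Gjb6 (the gap junction proteins connexin 43 and connexin 30), Aqp4 (a water channel), and Clu and Apoe (lipid carriers). They were taken by name from the mouse expression array, through the RefSeq entry of each probe, and every probe of each gene was used. That gave 10 of the 22911 named genes on the array and 19 of its 56605 probes. All 19 probes were well above background on all 16 arrays, so none was lost to the filter on dim probes that left 39588 probes in all.

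Astrocytes take up the glutamate that neurons release, through 2 transporters that use the sodium gradient, and glutamine synthetase turns it into glutamine that is handed back to neurons. The sodium pump keeps up that gradient, connexins join astrocytes into a network through which potassium and metabolites spread, and the water channel sits in the endfeet on blood vessels. Astrocytes are also the main source of apolipoprotein E and clusterin in brain tissue and break down glucose through aldolase C. Aldoc, Gja1 and the transporters are used as astrocyte markers in cortex.

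RNA from cerebral cortex of 16 male mice was read on 1-colour Agilent arrays, 1 array a mouse, with 4 mice in each group. The groups were Neil1 knockouts given 6 Gy of whole-body gamma rays at 0.74 Gy/min, sham-exposed knockouts, wild-type littermates given the same dose, and sham-exposed wild-type littermates. NEIL1 is an enzyme that removes oxidised bases from DNA, and the study is titled for its role in neurogenesis and in inflammation of the brain after stress. All mice were 28 to 42 weeks old, came from crosses to C57BL/6, carried BrdU (100 mg/kg, given before exposure and again 2 h after it) and were sampled 20 h after exposure. The knockout carries the gene loss in every cell, so an effect that starts in astrocytes cannot be told apart from one that starts in another cell. Bulk RNA was measured, so fewer cells of a type cannot be told apart from less RNA per cell. The limma p-values set a difference against the spread between mice within groups, taken over all 4 groups of 4 and moderated over probes.

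Levels below are log2 signal relative to the 75th percentile of the same array, and a difference of 1 is a 2-fold difference. The arrays labelled knockout lay on 1 slide with 1 scan and the wild-type arrays on another. Genotype and slide thus cannot be told apart. Irradiated and sham arrays shared a slide, but on each slide the irradiated arrays lay in row 2 and the sham arrays in row 1. Irradiation and slide row therefore cannot be told apart either. The 75th percentile of intensity was 1333 ± 301 (SD, n = 4) in irradiated knockout arrays, 1778 ± 343 in sham knockout arrays, 2301 ± 235 in irradiated wild-type arrays and 2415 ± 274 in sham wild-type arrays, so the irradiated knockout arrays were the dimmest. The Neil1 probe was brighter in arrays labelled knockout (-2.36 ± 0.23 irradiated and -2.38 ± 0.19 sham) than in wild-type arrays (-3.75 ± 0.40 irradiated and -3.65 ± 0.28 sham; SD, n = 4). The place of that probe relative to the deleted part was not given in the sources used here, so it checks nothing about the labels, and "knockout" below means the arrays labelled so. The astrocyte markers Aldh1l1, S100b, Gfap and Sox9 were well above background on all 16 arrays, and so were markers of neurons (Rbfox3), oligodendrocytes (Mbp), microglia (Cx3cr1) and endothelium (Cldn5). As a reading of the exposure itself, 7 of 12 listed p53 target genes rose in the average over genotypes (limma, adjusted p under 0.05), where 0.101% of all probes were called higher. Among them were Eda2r, by 3.14 ± 0.17 (SE, adjusted p = 1.11e-06), and Gdf15, by 1.90 ± 0.12 (adjusted p = 4.31e-06). That list was chosen with earlier results of these data known.

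Promoter sequences are shown for Gja1, which was called on 1 probe between genotypes after irradiation, and for the glutamate transporter gene Slc1a3, which was not. They are the 250 bases before the gene's outermost start in RefSeq's tables of build GRCm38.p6, printed 5′ to 3′ on the gene's strand. An entry in the promoter table exists for 7 of the 10 genes, but that of Slc1a2 belongs to a start inside the gene and is not shown. Capitals mark the letters of 5 motifs searched on both strands: the GC box GGGCGG, the CCAAT box CCAAT, the TATA box TATAAA, the STAT element TTCNNNGAA and the p53 half-site.
Gja1, chr10:56377050-56377299, plus strand: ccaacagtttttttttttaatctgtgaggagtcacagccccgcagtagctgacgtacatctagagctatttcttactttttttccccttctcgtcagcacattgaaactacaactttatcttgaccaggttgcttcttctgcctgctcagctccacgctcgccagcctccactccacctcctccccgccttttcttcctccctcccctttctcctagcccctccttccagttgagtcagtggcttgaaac
Slc1a3, chr15:8710808-8711057, minus strand: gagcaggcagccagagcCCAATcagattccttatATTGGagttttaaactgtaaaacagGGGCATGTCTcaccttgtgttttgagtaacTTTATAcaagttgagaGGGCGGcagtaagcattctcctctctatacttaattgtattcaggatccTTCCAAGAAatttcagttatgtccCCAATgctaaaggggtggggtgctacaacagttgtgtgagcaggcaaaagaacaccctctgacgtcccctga
The Slc1a3 window held 3 CCAAT boxes and 1 match to each of the other 4 motifs, with no overlap between motifs, while the Gja1 window held none. Of 32851 windows of the same length in the table, which holds several starts for some genes, 33.8% held a CCAAT box, 32.7% a GC box, 12.4% a TATA box, 7.02% a STAT element and 7.13% a p53 half-site. A match is a stretch of letters and not a measured binding site, and no match says only that these letters are not in this window.

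The first question was whether irradiation changed these genes. It changed none of them past the threshold. In knockout cortex 0 of 19 probes were called (limma, Benjamini-Hochberg over all probes tested, adjusted p under 0.05), where 0.0455% of all probes were called. In wild-type cortex it was again 0 of 19, against 0.0404% of all probes. At an unadjusted p under 0.05 the counts were 2 of 19 in knockout and 0 of 19 in wild type, where 6.04% and 1.86% of all probes passed. The median difference was 0.08 in knockout (range -0.33 to 0.46) and -0.02 in wild type (range -0.27 to 0.10), against 0.02 and -0.01 over all probes. In wild type the 95% interval of 17 of 19 probes lay within a 1.5-fold change either way, and the other 2 were those of Aqp4. In knockout the intervals of 12 of 19 lay within that limit, and for the other 7 a larger change was within the interval.

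**Figure D1:**
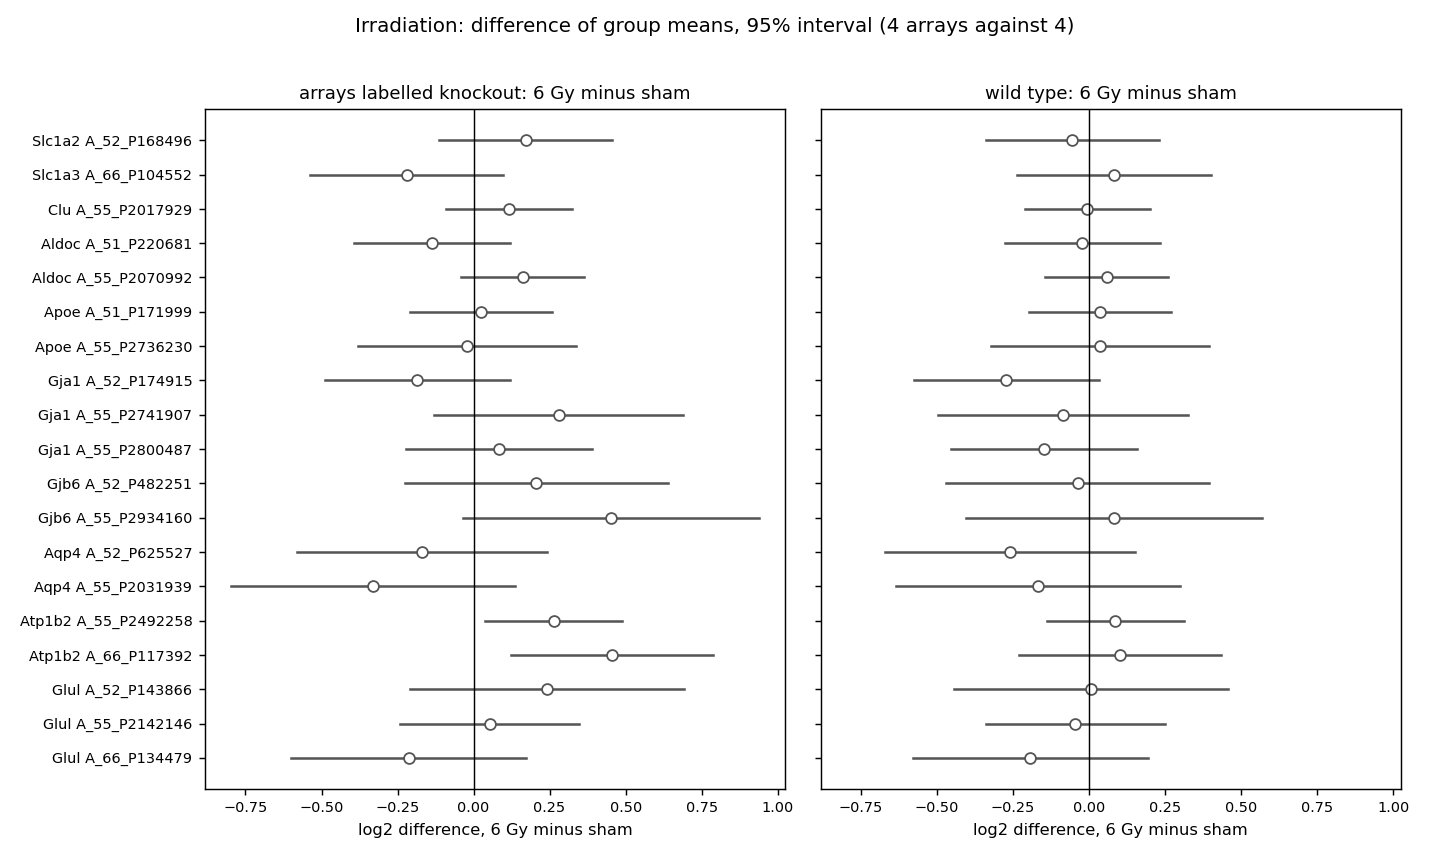
Difference between irradiated and sham arrays (log2, x axis) for each of the 19 probes (y axis), in arrays labelled knockout on the left and wild type on the right. Points are differences of group means and lines their 95% intervals (4 arrays against 4); no probe passed an adjusted p under 0.05, and both Atp1b2 probes in knockout have intervals above 0.

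Atp1b2, the beta 2 subunit of the sodium pump, came nearest to the threshold. Its probe A_66_P117392 read -0.83, -0.87, -0.42 and -0.79 in irradiated knockout arrays, against -1.52, -1.24, -0.96 and -1.03 in sham knockout arrays. The irradiated arrays were all above the sham arrays. The difference was 0.46 ± 0.16 (SE; adjusted p = 0.64; exact permutation p = 0.0286, the smallest that 4 against 4 can give). The second Atp1b2 probe, A_55_P2492258, read 4.58, 4.43, 4.73 and 4.56 in irradiated knockout arrays and 4.43, 4.14, 4.35 and 4.33 in sham knockout arrays. Again the groups did not overlap, by a narrow margin, and the difference was 0.26 ± 0.10 (adjusted p = 0.727). These were the only 2 of the 19 probes whose groups did not overlap in knockout, where 2.67% of all probes did not overlap. In wild type both probes overlapped between irradiated and sham arrays, with differences of 0.10 ± 0.16 and 0.09 ± 0.10, and 0 of 19 probes were free of overlap against 3.07% of all.

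The glutamate transporters did not differ past the threshold. Slc1a2 averaged 3.22 ± 0.22 in irradiated and 3.05 ± 0.13 in sham knockout arrays, and 2.64 ± 0.15 in irradiated and 2.70 ± 0.18 in sham wild-type arrays (SD, n = 4 each). Slc1a3 averaged 3.35 ± 0.26 and 3.57 ± 0.24 in the same knockout groups, with 3.57 ± 0.18 in irradiated and 3.48 ± 0.07 in sham wild-type arrays. The irradiated and sham arrays overlapped for both genes in both genotypes, and neither gene was called. The 3 probes of Glul, whose enzyme makes glutamine from the glutamate taken up, differed by -0.21 to 0.24 in knockout and by -0.19 to 0.01 in wild type.

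The gap junction and water channel genes had lower means after irradiation on some probes and higher means on others, but no difference passed the test. The brightest Gja1 probe, A_52_P174915, read 0.05, 0.06, 0.21 and 0.27 in irradiated knockout arrays and 0.14, 0.32, 0.35 and 0.51 in sham knockout arrays. In wild type it read -0.03, -0.33, -0.33 and -0.03 in irradiated and -0.32, 0.19, 0.19 and 0.32 in sham arrays. The groups overlapped in both genotypes, and the average over genotypes was -0.23 ± 0.10 (adjusted p = 0.844). The 2 other Gja1 probes differed by 0.10 and -0.03 in that average, so the probes of this gene did not share a direction. In knockout alone Gja1 A_55_P2741907 was higher after irradiation by 0.28 ± 0.19 (SE). Sham knockout replicate 1 read -3.997 on this probe, where the other sham knockout arrays read -3.22 to -3.07. The Gjb6 probes A_55_P2934160 and A_52_P482251 had higher means after irradiation in knockout, by 0.45 ± 0.23 (adjusted p = 0.871) and 0.21 ± 0.20. In wild type they differed by 0.08 ± 0.23 and -0.04 ± 0.20, and the groups overlapped on both probes in both genotypes. On A_55_P2934160 sham knockout replicate 2 read -1.653, where the other sham knockout arrays read -1.185 to -1.129. Both Aqp4 probes had lower means after irradiation in both genotypes, by 0.17 to 0.33 with standard errors of 0.19 and 0.22, and the sign held with quantile and cyclic loess scaling. Averaged over genotypes 0 of 19 probes were called, against 0.147% of all probes, and 3 of 19 passed an unadjusted p under 0.05 (the Gja1 probe above and both of Atp1b2) where 5.67% of all probes did.

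The lipid carriers and aldolase C had narrow intervals around small differences. Clu averaged 6.48 ± 0.15 in irradiated and 6.36 ± 0.06 in sham knockout arrays, and 6.08 ± 0.09 in both wild-type groups. The Apoe probe A_51_P171999 averaged 6.44 ± 0.16 in irradiated and 6.41 ± 0.08 in sham knockout arrays, with 6.18 ± 0.14 in irradiated and 6.14 ± 0.12 in sham wild-type arrays. Differences by irradiation were at most 0.12 for Clu and for both Apoe probes in either genotype. The intervals of these 3 probes and of both Aldoc probes lay within a 1.5-fold change for irradiation in both genotypes.

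**Figure D2:**
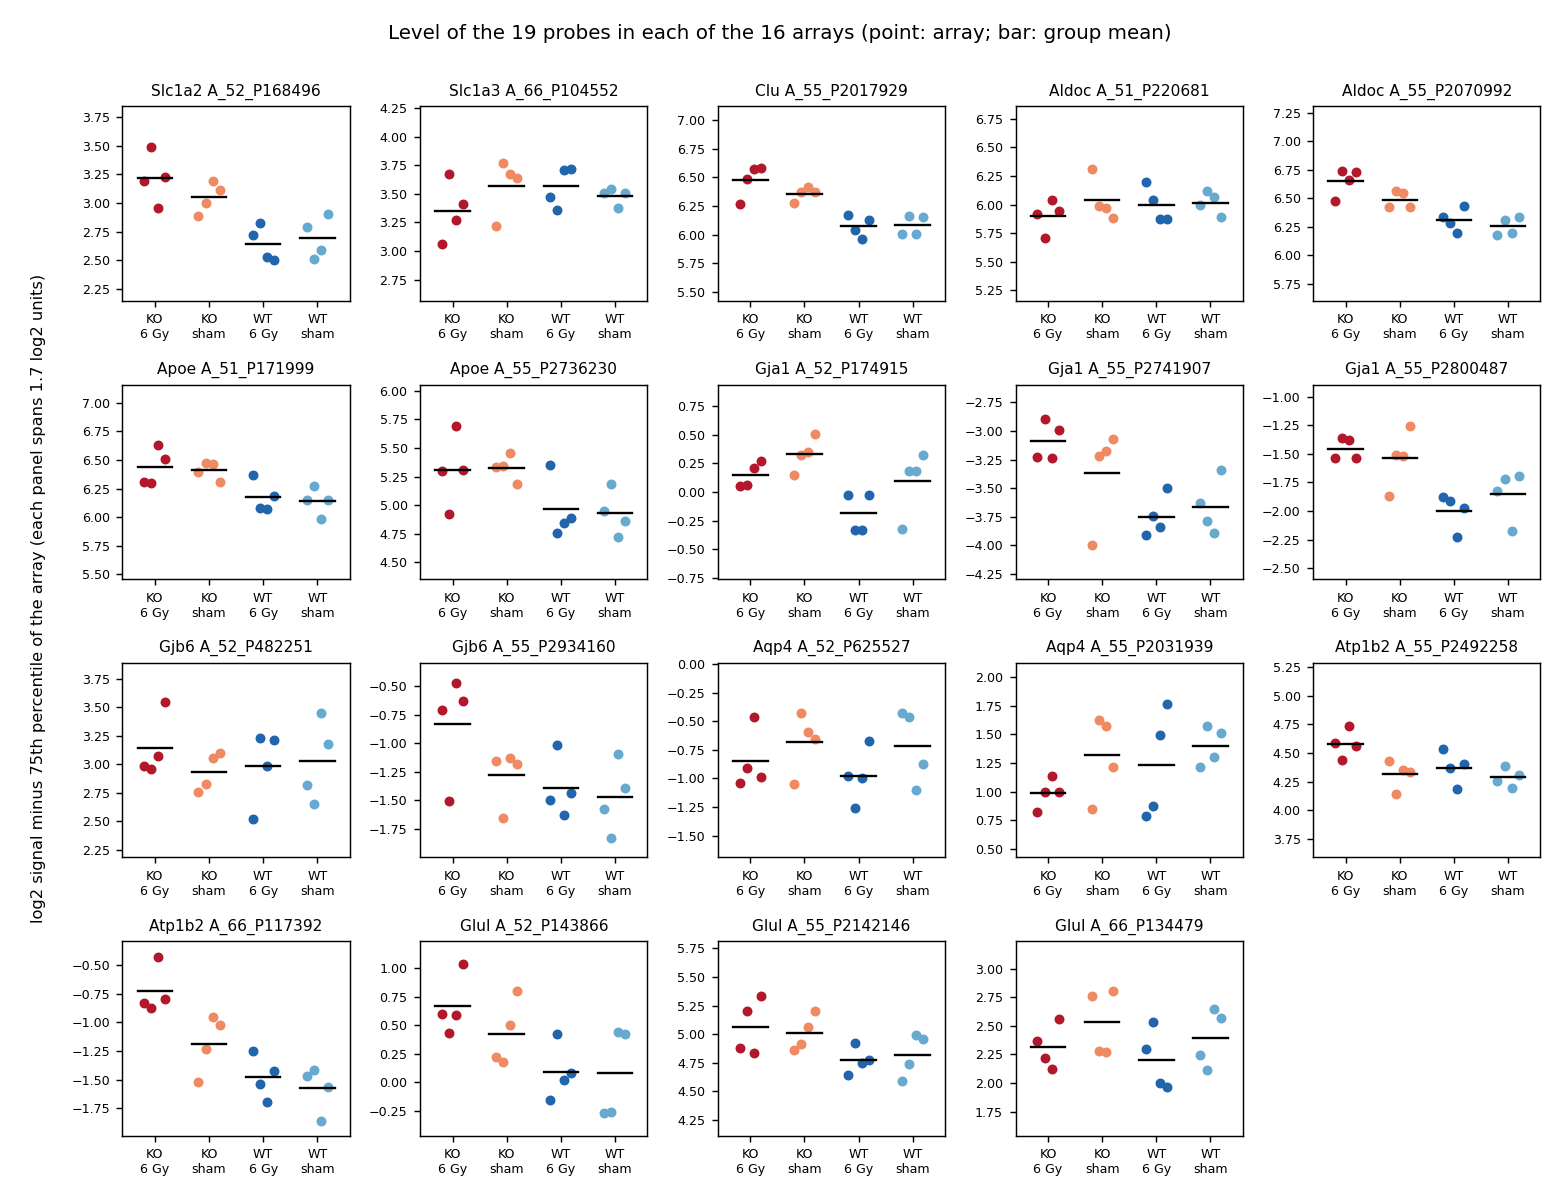
Level of each of the 19 probes (y axis, log2 signal minus the array's 75th percentile; every panel spans 1.7 log2 units) in the 4 groups (x axis), with 1 point per array and a bar at the group mean. Points of irradiated and sham arrays of a genotype mostly intermingle, while 8 probes have all irradiated knockout points above all irradiated wild-type points.

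The next question was whether the genes differed between genotypes after irradiation, and here 4 of the 19 probes passed the test, all higher in knockout. They belong to Atp1b2, Slc1a2, Gja1 and Clu. Over all probes 4.67% were called and 4.1% were called higher, beside 21.1% of the 19 probes. At an unadjusted p under 0.05 there were 10 of 19, where 20.6% of all probes passed. The median difference of the 19 probes was 0.33 against 0.07 over all probes, and 16 of 19 were higher where 58.1% of all probes were. With quantile scaling 14 of 19 were higher, and the median was 0.19 against -0.03 over all probes. For 8 of 19 probes every irradiated knockout array read above every irradiated wild-type array, where 8.84% of all probes did so and 12% did not overlap in either direction. These shares describe the probes, which are not independent of each other, and genotype cannot be told apart from slide in any of them. The comparison shares its irradiated knockout and irradiated wild-type arrays with the comparisons by irradiation above.

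The largest difference was that of the Atp1b2 probe A_66_P117392. It read -0.83, -0.87, -0.42 and -0.79 in irradiated knockout arrays, against -1.25, -1.54, -1.70 and -1.42 in irradiated wild-type arrays. The groups lie apart, with a difference of 0.75 ± 0.16 (SE; adjusted p = 0.0185), or 1.68-fold. The other Atp1b2 probe, A_55_P2492258, had 4.58 ± 0.12 in irradiated knockout and 4.37 ± 0.14 in irradiated wild-type arrays (SD, n = 4), a difference of 0.21 ± 0.10 (SE) that was not called (adjusted p = 0.294). The difference of the first probe exceeded that of the second by 0.54 within arrays (exact permutation p = 0.0286; 0.157 after Benjamini-Hochberg over 11 probe pairs).

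Slc1a2, the main glutamate transporter of the forebrain (GLT-1), read 3.20, 3.49, 2.96 and 3.23 in irradiated knockout arrays, against 2.72, 2.82, 2.52 and 2.50 in irradiated wild-type arrays. No array of either group reached into the range of the other. The difference was 0.58 ± 0.13 (SE; adjusted p = 0.027), or 1.49-fold. Slc1a3, the related transporter GLAST, had a difference of -0.21 ± 0.15 (adjusted p = 0.474) with overlapping groups: 3.06, 3.67, 3.27 and 3.41 in irradiated knockout arrays and 3.47, 3.36, 3.71 and 3.72 in irradiated wild-type arrays. Of the 2 transporters, 1 was called higher in knockout, and the other was not called and had a lower mean there.

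Of the glutamine synthetase probes, A_52_P143866 read 0.60, 0.43, 0.59 and 1.04 in irradiated knockout arrays and -0.16, 0.42, 0.02 and 0.08 in irradiated wild-type arrays. These do not overlap, by the narrow gap between 0.43 and 0.42, and the difference of 0.58 ± 0.21 was not called (adjusted p = 0.127). The brightest Glul probe, A_55_P2142146, differed by 0.29 ± 0.14 (adjusted p = 0.252) and the third, A_66_P134479, by 0.12 ± 0.18 (adjusted p = 0.792). All 3 had higher means in knockout, and none was called.

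All 3 probes of Gja1, the main astrocyte connexin, read higher in every irradiated knockout array than in any irradiated wild-type array. The probe A_55_P2800487 gave -1.54, -1.36, -1.38 and -1.54 in irradiated knockout arrays, against -1.88, -1.92, -2.23 and -1.97 in irradiated wild-type arrays. Its difference was 0.54 ± 0.14 (SE; adjusted p = 0.0443), or 1.46-fold. The dimmest probe, A_55_P2741907, gave -3.23, -2.89, -3.23 and -2.99 in irradiated knockout arrays, against -3.91, -3.75, -3.84 and -3.50 in irradiated wild-type arrays. Its difference of 0.66 ± 0.19 was just outside the threshold (adjusted p = 0.0618). The brightest, A_52_P174915, differed by 0.33 ± 0.14 (adjusted p = 0.207).

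Gjb6, the other astrocyte connexin, overlapped between the groups on both probes. Its probe A_55_P2934160 averaged -0.83 ± 0.46 in irradiated knockout and -1.39 ± 0.26 in irradiated wild-type arrays (difference 0.56 ± 0.23, adjusted p = 0.17), and A_52_P482251 averaged 3.14 ± 0.27 and 2.99 ± 0.33 in the same groups (difference 0.15 ± 0.20, adjusted p = 0.745). The Aqp4 probes differed by 0.12 ± 0.19 and -0.24 ± 0.22, in opposite directions and with overlapping groups. Neither gene was called.

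Clu, a lipid-binding chaperone, read 6.27, 6.48, 6.57 and 6.58 in irradiated knockout arrays, against 6.17, 6.04, 5.96 and 6.13 in irradiated wild-type arrays. Every knockout array lay above every wild-type array, 6.27 and 6.17 being the nearest. The difference was 0.40 ± 0.10 (SE; adjusted p = 0.0324), or 1.32-fold. Apoe, the main carrier of cholesterol between brain cells, differed by 0.26 ± 0.11 (adjusted p = 0.188) and 0.34 ± 0.17 (adjusted p = 0.269) on its 2 probes, with overlap on both.

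The 2 probes of Aldoc, the aldolase that marks astrocytes in cortex, gave different readings, although each was spotted 10 times on every array. The probe A_55_P2070992 read 6.47, 6.74, 6.66 and 6.73 in irradiated knockout arrays, against 6.34, 6.29, 6.20 and 6.43 in irradiated wild-type arrays. The probe A_51_P220681 read 5.92, 5.71, 6.04 and 5.94 in irradiated knockout arrays, against 6.19, 6.04, 5.88 and 5.87 in irradiated wild-type arrays. The first did not overlap between groups and differed by 0.34 ± 0.09 (SE; adjusted p = 0.0556), and the second overlapped and differed by -0.09 ± 0.12 (adjusted p = 0.739). The difference of the first exceeded that of the second by 0.43 within arrays (exact permutation p = 0.0571; 0.157 after Benjamini-Hochberg over 11 probe pairs). Within groups the difference between the 2 probes had an SD of 0.21 in irradiated knockout and 0.18 in irradiated wild-type arrays (n = 4 each). Across all 11 pairs of probes of 1 gene, the brighter probe had the smaller or more negative difference between genotypes after irradiation in 9 pairs and the larger in 2 (1 Aldoc pair and 1 of Glul).

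**Figure D3:**
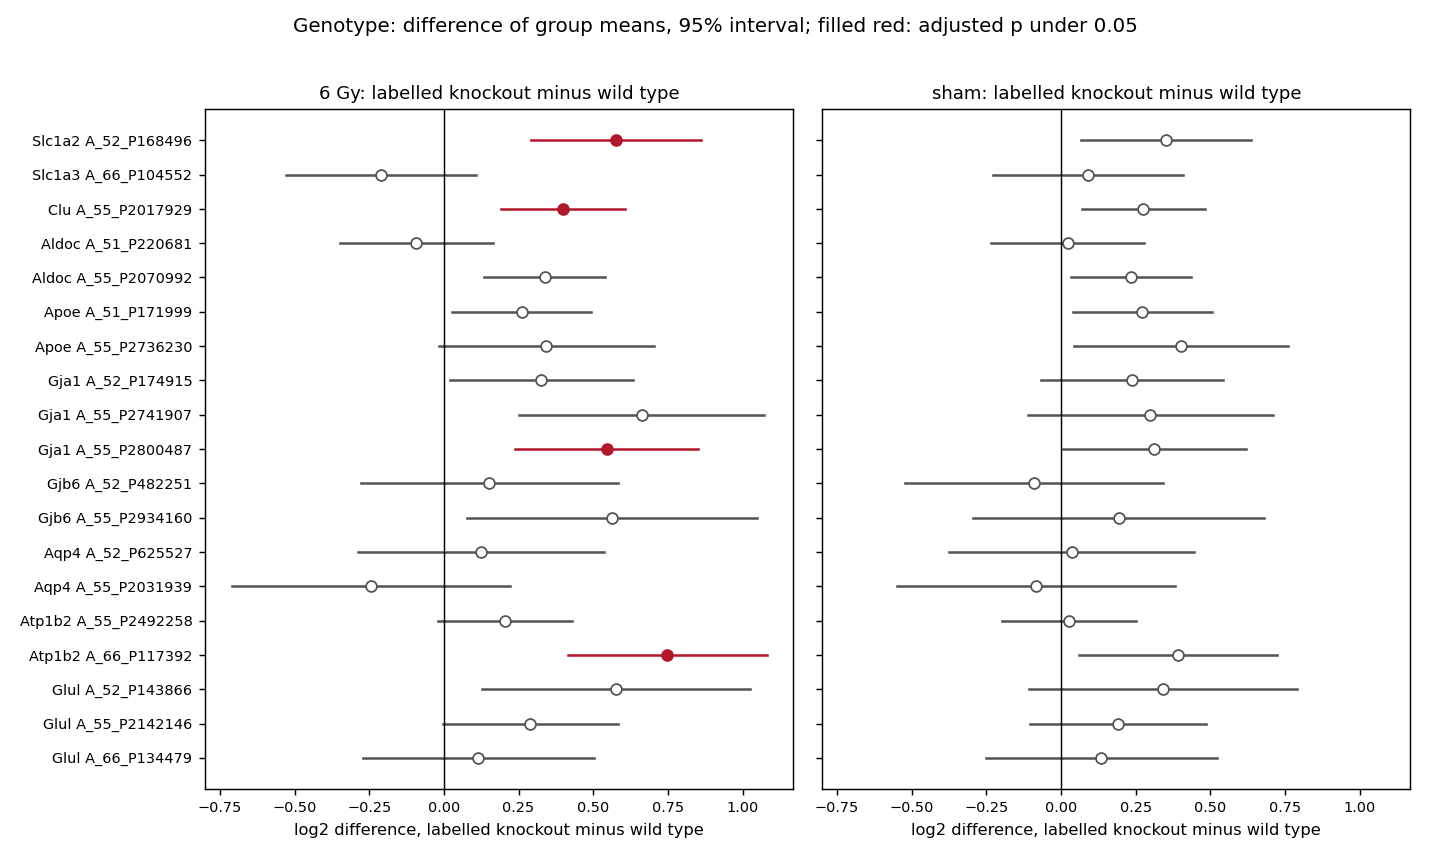
Difference between arrays labelled knockout and wild-type arrays (log2, x axis) for each of the 19 probes (y axis), after 6 Gy on the left and after sham exposure on the right. Points are differences of group means, lines their 95% intervals (4 arrays against 4), and filled red points the 4 probes with an adjusted p under 0.05, all of them after 6 Gy.

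In sham-exposed cortex 0 of 19 probes differed past the threshold between genotypes, where 0.0455% of all probes did. Of the 19 probes 17 had higher means in knockout, where 51.5% of all probes did, and the median difference was 0.23 against 0.01 over all probes. With quantile scaling 14 of 19 were higher, and the median was 0.08 against -0.02 over all probes. At an unadjusted p under 0.05 there were 7 of 19, where 9.04% of all probes passed. With quantile scaling there were 3 of 19, and 3357 of all 39588 probes. Slc1a2 read 2.89, 3.0, 3.19 and 3.12 in sham knockout arrays, against 2.79, 2.51, 2.59 and 2.90 in sham wild-type arrays. The groups overlap only at 2.89 and 2.90, and the difference was 0.35 ± 0.13 (SE; adjusted p = 0.425). Clu read 6.28, 6.37, 6.41 and 6.37 in sham knockout arrays, against 6.01, 6.16, 6.00 and 6.16 in sham wild-type arrays. Clu was thus 1 of 3 probes without overlap, with a difference of 0.28 ± 0.10 (adjusted p = 0.391). The others were A_55_P2070992 of Aldoc (0.23 ± 0.09, adjusted p = 0.47) and A_51_P171999 of Apoe (0.27 ± 0.11, adjusted p = 0.465), and 5.65% of all probes did not overlap, 4.24% with knockout higher. With quantile scaling these 3 differences in sham were 0.03 for Clu, -0.03 for Aldoc and 0.03 for Apoe.

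Because 4 probes passed the test after irradiation and 0 in sham, the difference of the differences was tested itself. The interaction called 0 of 19 probes and 0% of all 39588, with 754 of these (1.9%) and 0 of the 19 at an unadjusted p under 0.05. For the 4 probes called after irradiation the interaction was 0.36 ± 0.22 for Atp1b2 A_66_P117392, 0.23 ± 0.19 for Slc1a2, 0.23 ± 0.20 for Gja1 A_55_P2800487 and 0.12 ± 0.14 for Clu (SE, adjusted p = 1 each). A larger genotype difference after irradiation than in sham was therefore not shown for any of the 19 probes. The interval for Atp1b2 ran from -0.11 to 0.83 and that for Slc1a2 from -0.18 to 0.63.

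How the arrays are put on 1 scale decided several of these values. With quantile scaling Atp1b2 A_66_P117392 (0.69, adjusted p = 0.0394) and Slc1a2 (0.61, adjusted p = 0.0495) were still called higher in knockout after irradiation. Gja1 A_55_P2800487 was 0.44 (adjusted p = 0.0936) and Clu 0.10 (adjusted p = 0.52), so neither call held. Among the brightest genes the direction itself depended on the scaling: A_55_P2070992 of Aldoc was at -0.02 and A_51_P171999 of Apoe at -0.03 with quantile scaling, against 0.34 and 0.26 with the 75th percentile. With cyclic loess scaling the same 2 probes of Atp1b2 (0.70, adjusted p = 0.0379) and Slc1a2 (0.60, adjusted p = 0.0499) were called, and Clu was at 0.40 (adjusted p = 0.0508).

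The brightest 1% of all kept probes were 396 in number, with Clu, both Aldoc probes and Apoe A_51_P171999 among them. With the 75th percentile 350 of the 396 were higher in knockout after irradiation and 383 in sham. Their median genotype difference after irradiation was 0.23 with the 75th percentile, 0.23 with cyclic loess and -0.01 with quantile scaling, and in sham it was 0.21, 0.14 and 0.00 under the same scalings. The Clu, Apoe A_51_P171999, Aldoc A_55_P2070992 and Aldoc A_51_P220681 differences of 0.40, 0.26, 0.34 and -0.09 after irradiation stand beside 0.23 for probes of like brightness. A fit with array brightness as a covariate is given below. Brightness differed between the groups, so its part in these differences cannot be fully told apart from genotype. Of all calls after irradiation 87.8% were higher in knockout with the 75th percentile and 69.6% with quantile scaling, and in sham 33.3% and 44%.

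Single arrays also decided calls. Without irradiated wild-type replicate 3, 0 of the 19 probes were called and 303 of all probes, against 4 and 1848 with all arrays. Without irradiated wild-type replicate 2 or replicate 4, or irradiated knockout replicate 4, 1 of the 19 was called, and without irradiated knockout replicate 2 or 3 it was 2. With the 2 dimmest arrays left out (irradiated knockout replicates 3 and 4), or with the 75th percentile of each array as a covariate, 0 of the 19 were called, both settings having been chosen after seeing the data. In those 2 settings Slc1a2 was at 0.70 (adjusted p = 0.0788) and 0.49 (adjusted p = 0.29), and Atp1b2 A_66_P117392 at 0.63 (adjusted p = 0.107) and 0.44 (adjusted p = 0.372).

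**Figure D4:**
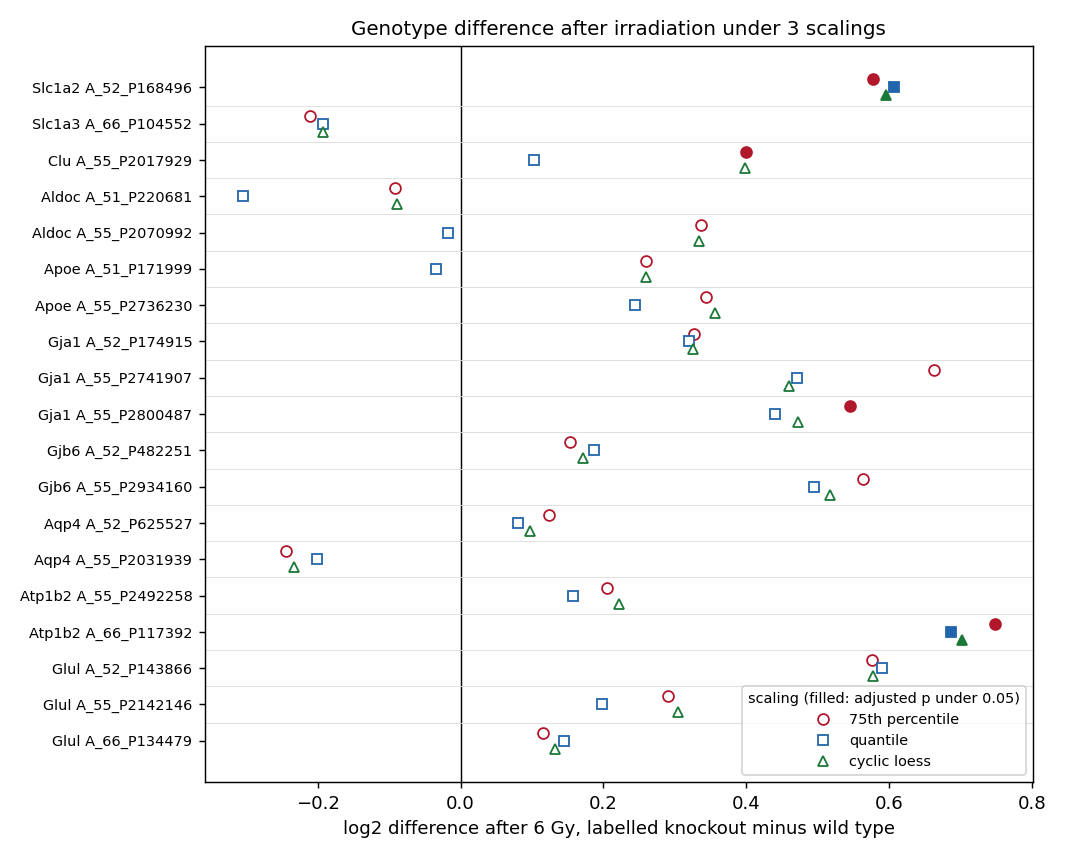
Genotype difference after 6 Gy (log2, labelled knockout minus wild type, x axis) of each of the 19 probes (y axis) under 3 scalings of the arrays, with filled symbols for an adjusted p under 0.05. Slc1a2 and Atp1b2 A_66_P117392 are filled under all 3, while Clu, Aldoc and Apoe A_51_P171999 shift to the left under quantile scaling.

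Other genes of the same pathways were read on their brightest probe, from lists chosen with earlier results of these data known. Of 52 other astrocyte markers 28 were higher and 24 lower in irradiated knockout than in irradiated wild-type cortex, with a median of 0.01, beside a median of 0.27 over the 10 genes when these too are read on their brightest probe. With quantile scaling the median of the 52 was 0.02. The 10 genes then ran from -0.20 (Aqp4) to 0.61 (Slc1a2), with Slc1a3, Aldoc, Apoe and Aqp4 below 0 and the others above. Of the 52, 2 were called, both higher, where 4.67% of all probes were called: Sparcl1, a secreted matrix protein of astrocytes, at 6.88 ± 0.21 in irradiated knockout and 6.40 ± 0.11 in irradiated wild-type arrays (adjusted p = 0.0366), and Mt1, a metallothionein that binds metals, at 6.14 ± 0.12 and 5.79 ± 0.07 in the same groups (adjusted p = 0.0458; SD, n = 4). Both are bright genes, and with quantile scaling their differences were 0.06 (adjusted p = 0.83) and 0.13 (adjusted p = 0.496). By irradiation 0 of the 52 were called in either genotype, with 19 higher and 33 lower in knockout and 17 higher and 35 lower in wild type. Of all probes 0.0455% were called in knockout and 0.0404% in wild type.

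Among 20 other genes of the glutamate and glutamine cycle 0 were called in any comparison, and 11 were higher and 9 lower in irradiated knockout (8 and 12 with quantile scaling). Of all probes 4.67% were called between genotypes after irradiation and at most 0.147% in any other comparison. For lists of this size 0 calls are near those shares. Among 11 other gap junction and pannexin genes 0 were called, with a median of -0.01 after irradiation. The list of potassium, water and endfoot genes held 20 others, of which 15 were higher and 5 lower in irradiated knockout (median 0.15) and 0 were called. Among its members Mlc1 differed by 0.33 ± 0.13 (adjusted p = 0.171) and Hepacam by 0.36 ± 0.15 (adjusted p = 0.189), genes whose proteins form a complex in astrocyte endfeet. Neither is a call.

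Of 29 other genes of glycolysis, glycogen and lactate 16 were higher and 13 lower in irradiated knockout (median 0.09; 10 and 19, with a median of -0.08, with quantile scaling), and 1 was called, where 4.67% of all probes were. That was Aldoa, the aldolase of most tissues, at 7.50 ± 0.17 in irradiated knockout and 7.10 ± 0.09 in irradiated wild-type arrays (adjusted p = 0.045), and its difference was -0.09 with quantile scaling (adjusted p = 0.637). Of 23 other lipoprotein and cholesterol transport genes 0 were called, with 10 higher and 13 lower. Srebf2, a regulator of cholesterol synthesis, differed by 0.41 ± 0.13 (adjusted p = 0.0801) and Abca1, the transporter that loads lipid onto Apoe, by -0.35 ± 0.11 (adjusted p = 0.0929).

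The reactive astrocyte list, genes known to go up in astrocytes after injury, gave mostly lower values in knockout. Of its 30 tested members 10 were higher and 20 lower in irradiated knockout than in irradiated wild type (median -0.18), and the same list had 9 higher and 21 lower in sham (median -0.15). Of the 30, 1 was called lower after irradiation, where 0.568% of all probes were called lower. It was S100a10, at 0.97 ± 0.17 in irradiated knockout and 1.7 ± 0.22 in irradiated wild-type arrays (adjusted p = 0.0323; 0.0528 with quantile scaling). By irradiation 0 of the 30 were called, where 0.0455% of all probes were called in knockout and 0.0404% in wild type. Lcn2, a secreted iron-carrier protein of reactive astrocytes, had differences of 1.16 ± 0.42 in knockout (adjusted p = 0.675) and 1.18 ± 0.42 in wild type (adjusted p = 1).

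Markers of other cells were compared between genotypes too, and few were called, where 4.67% of all probes were after irradiation and 0.0455% in sham. Of 15 neuron markers 14 were higher in knockout both after irradiation (median 0.23; 11 with quantile scaling) and in sham (median 0.18; 10 with quantile scaling), with 1 called after irradiation, Thy1 (0.45 ± 0.10, adjusted p = 0.0235; 0.213 with quantile scaling), and 0 in sham. Their summed level was 8.91 to 9.04 in irradiated knockout arrays and 8.83 to 9.01 in sham knockout arrays. In wild type it was 8.70 to 8.78 in irradiated and 8.63 to 8.70 in sham arrays, so the genotypes did not overlap. The sums of the 52 other astrocyte markers did not overlap between genotypes within either exposure. They were 9.37 to 9.65 in irradiated knockout and 9.403 to 9.552 in sham knockout arrays. In wild type they were 9.32 to 9.34 in irradiated and 9.197 to 9.399 in sham arrays. The sums add linear signals before the log2 is taken, so the brightest genes weigh most. They are on the scale of the levels above and are not given with quantile scaling. Of the 52 astrocyte markers themselves 28 were higher and 24 lower in knockout after irradiation (median 0.01), and 30 and 22 in sham (median 0.03). Of 15 oligodendrocyte markers 14 were higher after irradiation (median 0.16) and 14 lower in sham (median -0.29), with sums that overlapped in all groups (7.14 to 8.0, 6.86 to 7.80, 6.99 to 7.65 and 7.01 to 7.87 in the same order of groups). Of 10 meningeal genes 9 had lower means in knockout after irradiation (median -0.47) and 10 in sham (median -0.22). Of 8 ependymal genes 7 had lower means after irradiation (median -0.36) and 7 in sham (median -0.53). Of 11 choroid plexus genes 6 had lower means after irradiation (median -0.05; 8 with a median of -0.28 with quantile scaling) and 11 in sham (median -0.41). Of the oligodendrocyte, meningeal, ependymal and choroid plexus genes 0 were called between genotypes after irradiation or in sham. Of 14 microglial markers 1 was called lower in knockout after irradiation, where 0.568% of all probes were, and 0 in sham. Means were higher for 6 and lower for 8 of them in each (medians -0.06 and -0.15). Of 9 cortical projection neuron genes 7 were higher after irradiation and 8 in sham (median 0.25 in each). In that list and those of oligodendrocyte precursors, endothelium, pericytes and blood 0 were called between genotypes.

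The summed levels of the ependymal, choroid plexus and meningeal lists overlapped between all groups. The ependymal sum was 1.75 to 2.52 in irradiated knockout, 1.59 to 2.51 in sham knockout, 1.75 to 2.97 in irradiated wild-type and 1.95 to 2.77 in sham wild-type arrays. The choroid plexus sum was 4.26 to 4.72, 4.15 to 4.54, 4.13 to 4.70 and 4.21 to 4.68 in the same order of groups, and the meningeal sum 1.66 to 3.63, 2.55 to 3.48, 2.48 to 3.95 and 2.95 to 3.82. No defining marker named above was at background on any array. The part of these other cells in the astrocyte gene differences was not tested.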

How the data were processed

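The arrays were read in 1 channel with version 12.0.3.1 of Agilent's Feature Extraction, per the file headers. The intensity used is that program's processed signal, background-subtracted and not scaled between arrays, and the deposited files also flag spots as well above background, saturated or outlying. The authors also deposited a table of scores for 42859 features (mean 0, SD 1, with identical quantiles in every column). How it was made was not given in the sources used here, and it served as an alternative only.

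From these files the log2 processed signal minus the array's 75th percentile was computed. Control and outlier spots were left out, and repeated spots were averaged per probe. Probes had to be well above background on at least 4 of 16 arrays and measured on at least 12 to be tested. Each probe was its own row, and 32994 probes were named through RefSeq's table of GRCm38.p6, used for names and promoters only. All 39588 kept probes were tested with limma 3.58.1 (R 4.3.3; lmFit and eBayes) in 1 fit over 16 arrays with a mean per group, two-sided, with Benjamini-Hochberg adjustment over all kept probes of a contrast and a threshold of 0.05. The script was tested on simulated data. Exact permutation tests compared single values between 4 and 4 arrays. The number of arrays limits the precision.

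The members and lists were chosen with earlier results of these data known. The text names every member and probe, Neil1, and from each astrocyte list the genes called in a contrast (up to 6) or a few of the smallest p; of other cells' lists it names up to 2 genes, and of p53 targets up to 3. Not every gene this rule allows is reported here. The alternatives were normexp background correction (offset 50, on the median spot signal, since the files hold no mean signal), quantile and cyclic loess scaling, 2 filters on dim probes, fits of 2 groups, trended variances, array weights, a replicate block, 1 probe per gene, the deposited scores, saturated spots left out, a 1.5-fold minimum, and each array left out. Same-numbered mice had deviations that correlated from -0.491 to 0.519, over 0.1 in 7 of 16 pairs, so the numbers were not taken as pairs. The replicate number was also the column of the array on its slide.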

Additional observations from a re-analysis of the deposited data

Results flagged for a closer look

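2 single arrays stood far from the other 3 of their group. Sham knockout replicate 1 read -3.997 on Gja1 A_55_P2741907, where the others read -3.22 to -3.07. Sham knockout replicate 2 read -1.653 on Gjb6 A_55_P2934160, where the others read -1.19 to -1.13. In all 76 groups of 4 values were looked at, and chance marks about 1 in 20 of such groups.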

How the results depend on the processing

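None of the 19 probes was called for irradiation in either genotype, for the average, for genotype in sham or for the interaction under any alternative run, and no called value changed direction. Calls on the 19 probes for genotype after irradiation, 4 as reported, were 7 with normexp background correction, 2 each with quantile scaling, cyclic loess scaling and the deposited scores, 2 genes with 1 probe per gene, 1 with a 1.5-fold minimum, and 0 with a fit of the 2 groups only, without the 2 dimmest arrays and with array brightness as a covariate (the last 2 chosen after seeing the data). They ranged from 0 to 5 with single arrays left out. Atp1b2 A_66_P117392 kept its call in 24 of 29 alternatives, Slc1a2 in 22 of 30, Clu in 18 of 30 and Gja1 A_55_P2800487 in 11 of 29. Over all probes the 1848 calls for genotype after irradiation were 14747 with normexp, 7037 with no filter on dim probes, 880 with the fit of 2 groups, 673 with cyclic loess, 580 with the deposited scores, 542 with quantile scaling, 205 with 1 probe per gene, 5 without the 2 dimmest arrays and 2 with the covariate, and 303 to 2519 with single arrays left out. The 18 calls for genotype in sham were 11 with no filter, 6 with the fit of 2 groups, 47 with array weights, 9 with 1 probe per gene, 8 with the covariate, and 8 to 20 with single arrays left out. For irradiation the fit of 2 groups called 2 probes in knockout, against 18 as reported, and 5 in wild type, against 16. The 18 in knockout were 7 without the dimmest arrays, 11 with the covariate and 11 to 19 with single arrays left out, and the 58 of the average were 31 without the dimmest arrays and 38 with the covariate. Normexp moved the median genotype difference of all probes after irradiation to 0.25 and leaving out the filter to 0.22, against 0.07. The replicate numbers were not taken as pairs of mice. With the replicate block the calls over all probes were 17 and 14 for irradiation in knockout and in wild type, 57 for the average, 2322 for genotype after irradiation, with 6 of the 19 probes among them, and 20 for genotype in sham. The causes were not tested. Fits of 2 groups and those with arrays left out use fewer arrays. The setting of 1 probe per gene tests 17436 probes. It leaves out Atp1b2 A_66_P117392 and Gja1 A_55_P2800487, which are not the brightest probes of their genes. Dim probes and 4 arrays a group limit what could be detected.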

Other observations

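Outside the astrocyte genes, 2 of 10 markers of oligodendrocyte precursors and 1 of 14 of microglia were called lower after irradiation in the average over genotypes (limma), where 0.147% of all probes were called. Of the other precursor and microglial markers none was called, and means were lower for 10 of the 10 precursor markers and 11 of the 14 microglial ones. Of 10 blood genes 2 were called lower in the same average, while 7 of the 10 had higher means (median 0.43). Gpr17, a receptor of oligodendrocyte precursors, fell by 0.63 ± 0.10 (SE, adjusted p = 0.0221) and Neu4 fell by 0.60 ± 0.09 (adjusted p = 0.00913; 0.173 with quantile scaling). P2ry12, a receptor of resting microglia, fell by 0.69 ± 0.08 (adjusted p = 0.000751), to -0.83 ± 0.06 in irradiated knockout arrays, against -0.07 ± 0.21 in sham knockout arrays, and to -0.40 ± 0.10 in irradiated wild-type arrays, against 0.22 ± 0.08 in sham wild-type arrays (SD, n = 4 each).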
